A study of Mus musculus with 12 samples.

Results

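The genes described here encode the SMN complex. They are Smn1, Gemin2, Ddx20 (also called Gemin3), Gemin4, Gemin5, Gemin6, Gemin7, Gemin8 and Strap (also called Unrip), 9 of the 22667 gene identifiers in the deposited tables. The list was chosen by membership of the complex, and the complex itself was selected on the measured level of Gemin8, which was higher in knockout libraries. The knockout against control values of Gemin8 are therefore given as a description, with no test. All 9 genes were found, and all 9 passed the filter on low counts.

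The SMN complex assembles spliceosomal small nuclear ribonucleoproteins (snRNPs). In the cytoplasm it loads a ring of Sm proteins onto a newly exported snRNA, after which the snRNA cap is hypermethylated and the particle returns to the nucleus. Loss of SMN in people causes spinal muscular atrophy, a disease of motor neurons, and SMN is also found in axons with proteins that bind mRNA. The gene removed in this study, Srrm4, encodes nSR100, a splicing regulator of the nervous system known for promoting the inclusion of neuronal microexons.

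RNA was sequenced from the cortex and the hippocampus of mouse embryos at E18.5. Wild type embryos served as controls. The nSR100/Srrm4 KO embryos derive from EUCOMM stem cells with a conditional nSR100lox allele, aggregated with ICR morulae, kept on C57Bl/6N and crossed to mice of strain B6.C-Tg(CMV-cre)1Cgn/J, whose Cre acts throughout the body. This cross removes exons 7 and 8, so the deletion is not limited to neurons. Each of the 4 groups has 2 libraries, 8 in all. Replicate 1 of each group was sequenced in 2 runs that share a table and count as 1 library. The labels do not say whether replicates, or the cortex and hippocampus libraries with the same number, came from separate embryos, so p-values measure only the spread between these libraries.

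The libraries held between 58210499 and 140052443 counts, and the first principal component, with 79.1% of the variance, separated the tissues. Srrm4 had a mean RPKM (reads scaled to transcript length and library size) of 24.7 ± 0.71 (SD, n = 2) in control cortex and 7.54 ± 0.81 in KO cortex, and of 26.9 ± 1.3 in control hippocampus and 5.92 ± 0.34 in KO hippocampus. Y-linked transcripts (Ddx3y, Kdm5d, Uty and Eif2s3y together) ranged from 25.4 to 148 CPM (counts scaled to library size alone) in 6 libraries and were at 0.319 and 0.412 CPM in replicate 2 of KO cortex and KO hippocampus. Of 10 cell cycle markers, all 10 passed as higher in hippocampus than in cortex in controls, and of 6 cortical neuron markers 5 passed as lower and 1 as higher, whereas summed neuron markers ranged from 3494 to 3771 RPKM in cortex and from 2718 to 3051 RPKM in hippocampus. Of 6 hippocampal neuron markers, 4 were higher and 2 lower in hippocampus. The tissue is bulk, so fewer cells of a type and less RNA per cell cannot be told apart, and the part of these marker differences in the results below was not tested.

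Gemin8, on the X chromosome, is the member whose level in knockout libraries led to the choice of this complex. It has a processed pseudogene copy, Gm5455, on chromosome 13. The copy is 715 bases long and differs from the Gemin8 coding sequence at 9 positions, an identity of 98.7%. The 2 stretches shown, from GENCODE mouse release 21 transcripts (GRCm38), run from base 26 to base 125 of the copy, counted from 1 at its 5′ end. Capitals mark C39T, G96A and G125T, with the Gemin8 base named first. They are shown because a read that lies within the 715 bases and covers none of the 9 positions matches both sequences.
Gemin8: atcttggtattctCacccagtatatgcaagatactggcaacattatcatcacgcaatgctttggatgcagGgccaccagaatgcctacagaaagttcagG
Gm5455: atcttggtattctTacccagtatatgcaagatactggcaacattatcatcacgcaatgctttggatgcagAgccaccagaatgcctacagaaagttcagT

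The members differed widely in level, and the order was similar in the 4 groups. Strap, a WD-repeat protein that binds Gemin7, had the highest RPKM, between 60.3 and 64.6 in the 8 libraries. Smn1, the subunit the complex is named for, ranged from 21.8 to 25.3 RPKM, and Gemin7, an Sm-like protein that pairs with Gemin6, from 19.1 to 26.6. Smn1 lay above Gemin7 in both cortex groups, while in control hippocampus their libraries overlapped and in KO hippocampus Gemin7 lay above.

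Ddx20, a DEAD-box helicase, followed at 8.36 to 10.2 RPKM. Gemin5, the subunit that recognises snRNA, ranged from 6.90 to 7.94 RPKM, Gemin4, which binds Ddx20, from 6.69 to 8.24, and Gemin6 from 5.42 to 7.69. In every group at least 1 pair of these last 3 overlapped between libraries, so their order was not clear. Gemin2, which binds SMN and holds the Sm ring as it forms, ranged from 4.39 to 6.14 RPKM. Gemin8, which joins the Gemin6 and Gemin7 pair to SMN, was the lowest of the 9 in every group, at 1.06 to 4.95 RPKM.

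**Figure D1:**
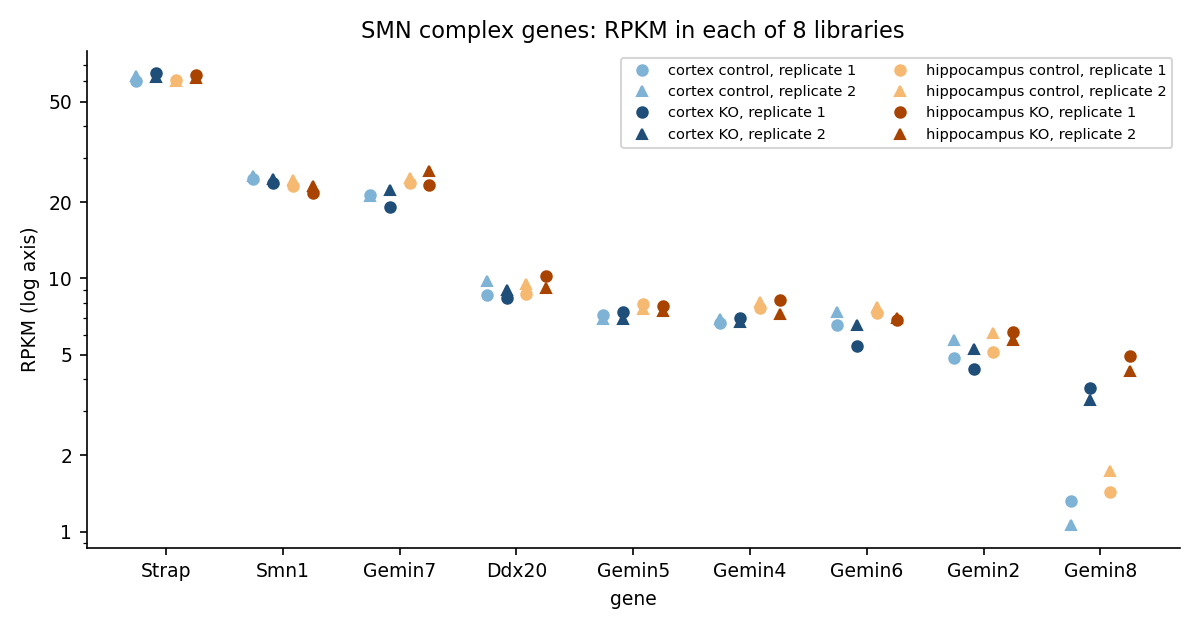
RPKM of each SMN complex gene (log axis) in the 8 libraries, with colour for tissue and genotype and marker shape for replicate. Gemin8 runs from 1.06 to 4.95 RPKM, a spread that holds the KO difference it was chosen for, while Strap stays between 60.3 and 64.6.

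The levels of 8 members varied less across the 8 libraries than the median gene. The highest CPM divided by the lowest was 1.07 for Strap, 1.15 for Gemin5 and 1.16 for Smn1, against a median of 1.53 over all 16111 genes tested. Only 0.55% of the tested genes had a smaller ratio than Strap. Such a ratio also holds counting error, which is larger for genes with few counts. These 8 members had at least 349 counts a library, and no comparison with genes of similar counts was made. The ratio was 1.22 for Ddx20, 1.23 for Gemin4, 1.39 for Gemin7, 1.40 for Gemin2 and 1.42 for Gemin6. For Gemin7, Gemin2 and Gemin6 these lay near the middle of all genes, with 39.6%, 40.1% and 42.1% of tested genes below them. For Gemin8 it was 4.65, and 92.3% of tested genes had a smaller one. That ratio holds the KO against control difference for which Gemin8 was chosen, so it is a description only.

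Gemin8 had low counts throughout. In control cortex it had 53 and 22 counts (replicates 1 and 2), or 1.32 and 1.06 RPKM, and in KO cortex 156 and 63 counts, or 3.68 and 3.31 RPKM. In control hippocampus it had 53 and 36 counts, or 1.44 and 1.73 RPKM, and in KO hippocampus 184 and 76 counts, or 4.95 and 4.31 RPKM. All 4 KO libraries lay above all 4 control libraries. No cell type marker passed between KO and control, but some lists leaned in 1 direction over both tissues: red blood cell markers had positive log2 fold changes in 5 of 5 (median 0.58, 4 at an unadjusted p under 0.05; 199 to 283 summed RPKM in control and 297 to 493 in KO libraries), microglia markers in 6 of 6 (median 0.19; 23.2 to 48.2 and 28.1 to 56.0 RPKM) and neuron markers in 0 of 8 (median -0.09; 3014 to 3771 and 2718 to 3660 RPKM). Mitochondrial genes took 4.401% of counts in replicate 1 of KO hippocampus and 3.14% to 3.44% in the other libraries. The part of these differences in the Gemin8 values was not tested, and without that library the log2 fold change over both tissues was 1.49.

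The mean RPKM of Gemin8 was 1.19 ± 0.18 (SD, n = 2) in control and 3.50 ± 0.26 in KO cortex, and 1.58 ± 0.21 in control and 4.63 ± 0.45 in KO hippocampus. The log2 fold change, KO over control, was 1.53 (SE 0.21) in cortex, 1.54 (SE 0.20) in hippocampus and 1.54 (SE 0.14) over both tissues. The difference between the tissues in this change was 0.00, and it ran from -0.21 to 0.14 without single libraries. No standard error is given for it, since one derived from the test statistic is unstable for so small a value. As pooled CPM, KO was 2.89 times control in cortex and 3.07 times in hippocampus.

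Within replicate 1, the deeper libraries, KO CPM was 2.79 times control CPM in cortex and 3.43 times in hippocampus. Within replicate 2, it was 3.11 times in cortex and 2.49 times in hippocampus. In replicate 2, Y-linked transcripts were at 144 CPM in control cortex and 148 in control hippocampus, against 0.319 and 0.412 in KO. In replicate 1 they were at 35.3 and 39.6 CPM in control and 25.4 and 49.8 in KO. The part of this Y-linked difference in the Gemin8 values was not tested. As a share of the summed RPKM of the 9 genes, Gemin8 went from 0.826% to 2.40% in cortex and from 1.07% to 3.03% in hippocampus.

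Counts assigned to the copy were lower in KO in 3 of the 4 comparisons within a tissue and replicate number. Gm5455, which was looked up after the Gemin8 values were seen, had 25 and 13 counts in control cortex and 3 and 2 in KO cortex. It had 37 and 7 counts in control hippocampus and 11 and 7 in KO hippocampus. As CPM it measured 0.188 and 0.191 in control cortex, 0.0214 and 0.0319 in KO cortex, 0.305 and 0.102 in control hippocampus and 0.0896 and 0.120 in KO hippocampus. The cortex groups did not overlap, whereas the hippocampus groups did, and in replicate 2 of hippocampus the KO value was the higher. Of all tested genes, 22.1% did not overlap in cortex, and the KO cortex values, 3 and 2 counts, lie at or under the floor of 3 counts.

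Gm5455 made up between 16.3% and 41.1% of the summed counts of both genes in control libraries, and between 1.89% and 8.43% in KO libraries. These are shares of counts and not of level, since the implied counted length was 70 bases for Gm5455 and 303 for Gemin8. Its log2 fold change, KO over control, was -2.86 (SE 0.70) in cortex, with an edgeR adjusted p of 1, and -1.17 (SE 0.53) in hippocampus, with an adjusted p of 0.992. The cortex value rests on 5 counts in KO and 38 in control. With the counts of both genes summed, the log2 fold change was 0.98 (SE 0.20) in cortex, 1.10 (SE 0.19) in hippocampus and 1.04 (SE 0.13) over both tissues. The summed CPM was 0.588 and 0.513 in control cortex against 1.14 and 1.04 in KO cortex, and 0.742 and 0.626 in control hippocampus against 1.59 and 1.43 in KO hippocampus. These sums hold the Gemin8 counts on which the genes were selected, so they too are a description and no independent support.

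**Figure D2:**
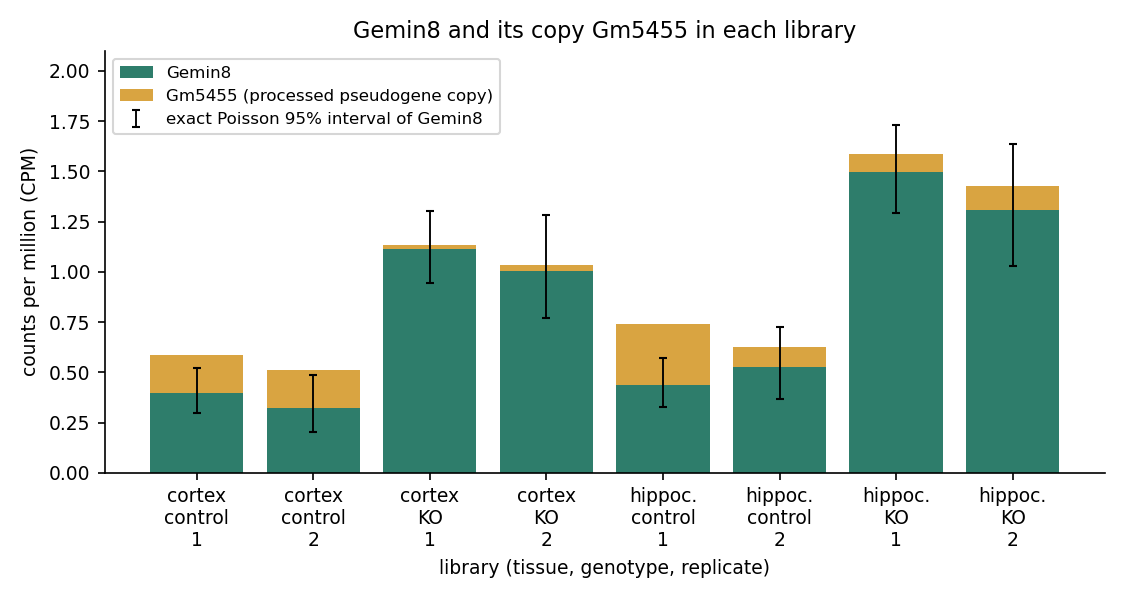
CPM of Gemin8 (green) with CPM of its copy Gm5455 stacked on top (yellow) in each library, with bars for the exact Poisson 95% interval of Gemin8, which covers counting error only. The summed CPM runs from 0.513 to 0.742 in the 4 control libraries and from 1.04 to 1.59 in the 4 KO libraries. CPM is not scaled to length, so the heights do not compare the levels of Gemin8 and Gm5455.

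The length over which Gemin8 was counted was short. Its counts and RPKM imply 303 bases, whereas its longest annotated transcript has 1928 bases, or 1879 windows of 50 bases. For 6 members (Smn1, Ddx20, Gemin5, Gemin6, Gemin7 and Strap) the implied length equalled the number of such windows within 1 base. For Gemin4 it was 3484 of 3491 and for Gemin2 1057 of 1539. For Gm5455 it was 70 of 666. By this implied length, the Gemin8 values rest on fewer bases than its longest annotated transcript holds. Which bases these are, and how the values relate to the whole transcript, was not tested.

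Other members also share sequence with other genes. Of the Gemin4 windows, 94.9% also lie in transcripts of other genes, mostly the overlapping Glod4 and Fam57a, and of the Gemin6 windows 11.2%, mostly in the pseudogene Gemin6-ps. For Gemin8 the share was 15.2%, and for Gemin2 4.68%. No window was shared for the other 5 members. No source used here gives how shared reads were assigned, so the levels of Gemin4, Gemin6, Gemin8 and Gemin2 are less certain than those of these 5.

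None of the other 8 members passed the test between KO and control. In cortex 0 of 8 passed an edgeR adjusted p of 0.05 (0.0186% of all tested genes did), in hippocampus 0 of 8 (0.0248%), and over both tissues 0 of 8 (0.0621%). All 8 adjusted p-values over both tissues were 1, and DESeq2 also passed 0 of 8 in each. The 95% intervals of their log2 fold changes over both tissues lay between -0.35 and 0.17. The median of the 8 was -0.02, near the median of all tested genes at 0.00. Over all genes, 183 had an unadjusted p under 0.05 in cortex, 614 in hippocampus and 713 over both tissues, and among the 8 members 0, 0 and 1 did.

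That 1 member was Gemin6. It measured 6.55 and 7.34 RPKM in control cortex, 5.42 and 6.58 in KO cortex, 7.32 and 7.69 in control hippocampus and 6.88 and 6.97 in KO hippocampus. Its log2 fold change over both tissues was -0.18 (SE 0.08), with an unadjusted edgeR p of 0.0463 and an adjusted p of 1. Within each tissue and replicate number its CPM was lower in KO, in 4 of 4 comparisons, but the groups overlapped in cortex.

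Smn1 measured 24.7 and 25.3 RPKM in control cortex, 23.9 and 24.8 in KO cortex, 23.2 and 24.6 in control hippocampus and 21.8 and 23.2 in KO hippocampus. Its log2 fold change over both tissues was -0.08 (SE 0.05), and its CPM too was lower in KO within each tissue and replicate number, in 4 of 4 comparisons. The labels do not say that same-numbered libraries are pairs, so nothing is read from these counts for Smn1 and Gemin6. Strap, the most abundant member, had a log2 fold change of 0.03 (SE 0.04). Those of Gemin2 (-0.04, SE 0.09), Ddx20 (-0.01, SE 0.06), Gemin4 (-0.02, SE 0.06), Gemin5 (-0.02, SE 0.05) and Gemin7 (-0.02, SE 0.07) were smaller than their standard errors.

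By CPM, the KO and control libraries did not overlap for 0 of 8 members in cortex (22.1% of tested genes) and for 3 of 8 in hippocampus (28.5%), Smn1 and Gemin6 lower and Strap higher in KO. They did not overlap in both tissues, in the same direction, for 0 of 8 (6.13%). The change did not pass the test of a difference between tissues for any member, and 0 of all tested genes passed it in edgeR (0% called, with 158 at an unadjusted p under 0.05) or in DESeq2. The edgeR adjusted p of that difference was 1 for each of the 8.

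**Figure D3:**
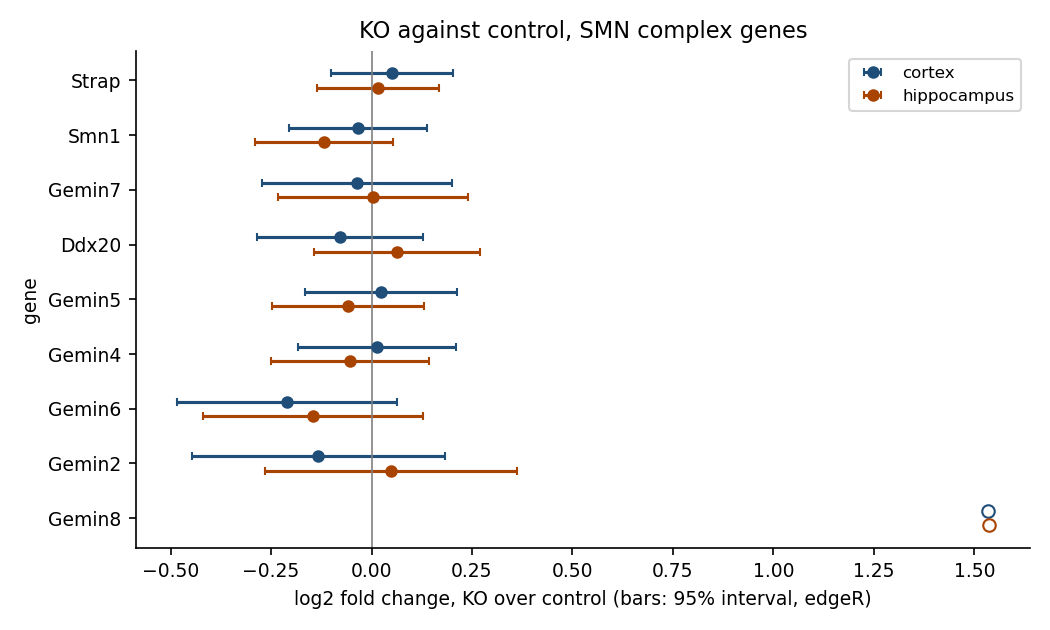
Log2 fold change, KO over control, of each SMN complex gene in cortex (blue) and hippocampus (orange), with 95% intervals from edgeR. Gemin8 is drawn as open circles without an interval, at 1.53 and 1.54, because it was chosen for this contrast. The intervals of the other 8 include 0.

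The X-linked genes next to Gemin8 did not pass the test in KO. Of the 5 tested genes on each side in the annotation order (Vegfd, Piga, Mospd2, Fancb and Glra2 on one side, Gpm6b, Ofd1, Trappc2, Rab9 and Tceanc on the other), 0 of 10 passed in cortex, in hippocampus or over both tissues. Their log2 fold changes over both tissues ran from -0.22 for Glra2, a glycine receptor subunit (SE 0.06, edgeR adjusted p 0.907), to 0.14 for Piga, an enzyme of GPI anchor synthesis (SE 0.07, adjusted p 1). In hippocampus they ran from -0.37 for Vegfd to 0.15, with Glra2 at -0.34 (SE 0.07). Of all tested genes, 0.0186% passed in cortex, 0.0248% in hippocampus and 0.0621% over both tissues.

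Patterns over the 8 libraries were compared with that of Gemin8 among 12657 genes with a mean RPKM of at least 1. Srrm4 and En2 were left out of the ranking. The most alike of the rest was Hddc3, with a Pearson r of 0.97 on log2 CPM, given as a description. Its mean RPKM was 8.11 in control and 19.995 in KO cortex, and 10.3 in control and 22.3 in KO hippocampus. Next came Micu2 (r of 0.97), a regulator of the mitochondrial calcium uniporter, at 26.7 and 39.6 RPKM in cortex and 31.8 and 44.3 in hippocampus, control then KO. Zfp784 (0.97), Proser3 (0.96) and Dhx34 (0.96) followed. In cortex, control then KO, mean RPKM was 5.04 and 5.485 for Zfp784, 5.525 and 7.795 for Proser3, and 5.035 and 5.77 for Dhx34. In hippocampus it was 5.25 and 6.035, 5.97 and 9.085, and 5.555 and 6.62, in the same order. Pearson r does not measure the size of a change. Hddc3, Zfp784, Proser3 and Dhx34 are on chromosome 7 and Micu2 is on chromosome 14. These r values share the 8 libraries and their depths.

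Levels of the members differed little between hippocampus and cortex, in a tissue contrast that the choice of members did not use. In controls 0 of 9 members passed the test, where 33.9% of all tested genes did, and the adjusted p-values ran from 0.193 to 0.956. Their log2 fold changes, hippocampus over cortex, ran from -0.14 for Smn1 (SE 0.07) to 0.29 for Gemin8 (SE 0.23, adjusted p 0.397). In KO 1 of 9 passed, where 40% of all tested genes did. By CPM, the tissues did not overlap for 5 of 9 members in controls (68.9% of tested genes), for 8 of 9 in KO (69.1%) and for 5 of 9 in both genotypes in the same direction (56.6%). CPM lacks the TMM scaling of the edgeR fit, so its direction can differ. In KO, Gemin5 lay higher in hippocampus by CPM, at an edgeR log2 fold change of -0.01 (SE 0.08).

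The member that passed in KO was Smn1. Its log2 fold change, KO hippocampus over KO cortex, was -0.22 (SE 0.07, edgeR adjusted p 0.0444), and 18.8% of tested genes passed as lower. Its CPM was 28.1 and 29.1 in KO cortex and 25.5 and 27.2 in KO hippocampus, so the groups did not overlap. The call did not hold when any library other than replicate 2 of KO hippocampus was left out: the adjusted p was then between 0.0764 and 0.144, with log2 fold changes between -0.23 and -0.17. With only the 4 KO libraries it was 0.157 at a log2 fold change of -0.22. The call held with DESeq2 (adjusted p 0.0277) and with RLE size factors in edgeR (0.0309). On log2(RPKM + 1) with limma, where the median of all genes shifted by 0.08 in KO, Smn1 changed by -0.11 (limma adjusted p 0.193). The member that passed there was Gemin8, higher in hippocampus by 0.32 (limma adjusted p 0.0455).

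With both genotypes in an additive model, a comparison added after seeing the data, 2 of 9 members passed, both lower in hippocampus, where 54.1% of all tested genes passed and 25% passed as lower. Smn1 had a log2 fold change of -0.18 (SE 0.05, edgeR adjusted p 0.0118), and Strap one of -0.11 (SE 0.04, adjusted p 0.0451). Within each genotype the CPM of Smn1 was lower in both hippocampus libraries than in both cortex libraries, whereas that of Strap overlapped in each genotype. On log2(RPKM + 1) with limma, where the median of all genes shifted by 0.07, neither passed: Smn1 changed by -0.09 (adjusted p 0.098) and Strap by -0.02 (adjusted p 0.571). The Strap call was also lost without any 1 of 7 libraries, all but replicate 1 of KO hippocampus, with adjusted p-values between 0.0506 and 0.136 and log2 fold changes between -0.13 and -0.09.

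Gemin8 did not pass between the tissues in edgeR, with a log2 fold change of 0.29 (SE 0.13, adjusted p 0.0925) over both genotypes. Its CPM, which lacks TMM scaling, lay higher in hippocampus than in cortex within each genotype. In KO the edgeR log2 fold change was 0.30 (SE 0.19, adjusted p 0.25). Gemin7 had 0.14 (SE 0.07, adjusted p 0.102) and Gemin4 0.10 (SE 0.06, adjusted p 0.15). On log2(RPKM + 1) with limma, these 3 passed as higher in hippocampus, with adjusted p-values of 0.00941 for Gemin8, 0.0158 for Gemin7 and 0.03 for Gemin4. In that setting the median of all genes shifted by 0.07, against 0.02 in edgeR, so nothing particular to these 3 is read from it. Gemin2, Gemin5, Gemin6 and Ddx20 had edgeR log2 fold changes of 0.10 (SE 0.09), 0.03 (SE 0.05), 0.07 (SE 0.08) and -0.02 (SE 0.06) over both genotypes, with adjusted p-values between 0.377 and 0.816.

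**Figure D4:**
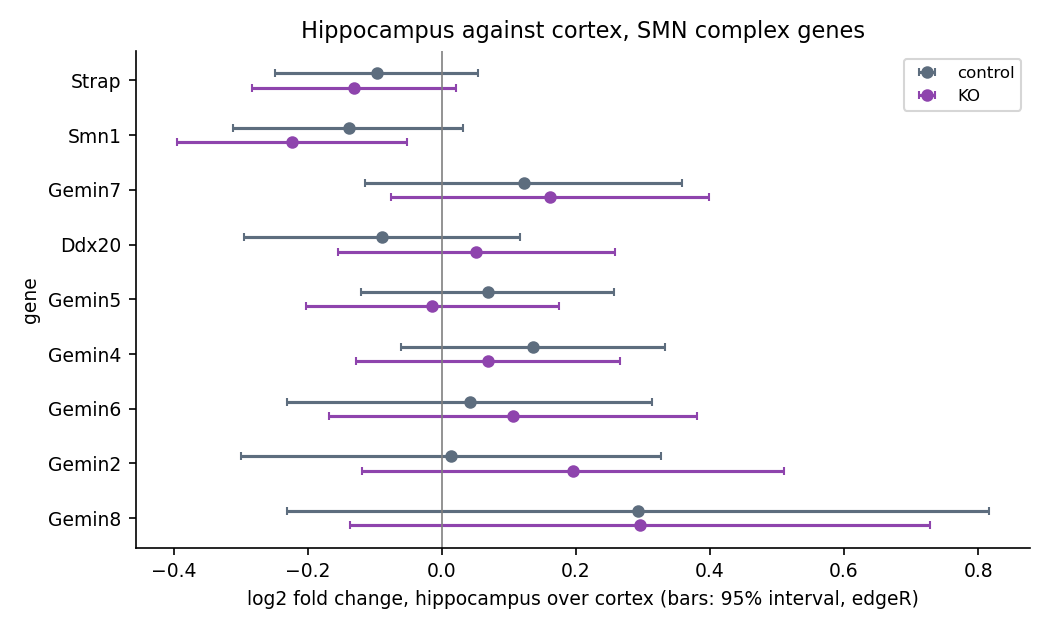
Log2 fold change, hippocampus over cortex, of each SMN complex gene in control (grey) and KO (purple) libraries, with 95% intervals from edgeR. Of the 9 genes, Smn1 is the 1 whose KO interval lies below 0, at -0.22.

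The genes around the SMN complex in snRNP production were tested as 10 lists, of which 95 of 97 genes were found and tested. Between KO and control, edgeR passed none of the 95 in cortex (0.0186% of all tested genes), hippocampus (0.0248%) or both tissues (0.0621%). None had an unadjusted edgeR p under 0.05 in these comparisons, where 183, 614 and 713 of 16111 genes did. DESeq2 passed none either, and 1 had an unadjusted DESeq2 p under 0.05 over both tissues. So few of all genes passed that nothing particular to these lists is read from this. Their log2 fold changes over both tissues ran from -0.15 for Lsm11, a subunit of the U7 snRNP, to 0.18 for Igf2bp1. Among the 7 Sm proteins tested, the median was 0.03, and among the 9 LSm proteins it was -0.02.

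Between the tissues more of them passed. In controls 3 of the 95 were higher and 5 lower in hippocampus, or 8.42% of the list against 33.9% of all genes. In KO 7 were higher and 9 lower, or 16.8% against 40%, and over both genotypes 14 and 17, or 32.6% against 54.1%. In that last comparison 29% of all tested genes passed as higher and 25% as lower, and nothing particular to a list is read from the counts below. None of the 7 Sm proteins and none of the 9 LSm proteins passed in any of these comparisons in edgeR, and 0 and 3 had an unadjusted p under 0.05 over both genotypes. DESeq2 passed 0 and 1 there, and limma on log2(RPKM + 1) 1 and 3.

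The lowest and the highest log2 fold change of the 95 were in the list of SMN partners in axons, of which 2 of 9 rose and 4 fell in hippocampus over both genotypes, where 54.1% of all genes passed. Elavl4 (HuD), an RNA-binding protein of neurons, measured 38.5 to 41.5 RPKM in the 4 cortex libraries and 27.7 to 31.3 in the 4 hippocampus libraries, with no overlap, and a log2 fold change of -0.50 (SE 0.05, adjusted p 2.27e-05). Igf2bp1, which binds beta-actin mRNA, measured 2.50 to 3.52 RPKM in cortex and 4.28 to 5.68 in hippocampus, with a log2 fold change of 0.69 (SE 0.09, adjusted p 0.00023). Pfn2, the neuronal profilin, had -0.33 (SE 0.05, adjusted p 0.000364). Summed cell cycle markers, at 152 to 178 RPKM in cortex and 237 to 279 in hippocampus, and the neuron markers given above moved with these differences. So did microglia markers (6 of 6 higher in hippocampus over both genotypes, 23.2 to 28.5 RPKM in cortex and 43.0 to 56.0 in hippocampus), vessel markers (5 of 5 higher, 50.1 to 54.5 and 64.5 to 73.0 RPKM) and choroid plexus markers (4 of 5 higher, 1.47 to 7.72 and 18.2 to 162 RPKM, with replicate 2 of control hippocampus apart at 162 and the others at or under 32.4). The part of these markers was not tested.

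Of the 7 minor spliceosome proteins, 3 rose in hippocampus over both genotypes and 0 fell, where 29% of all genes rose and 25% fell. Zmat5, a U11/U12 snRNP protein, measured 19.9 to 23.9 RPKM in cortex and 28.7 to 31.1 in hippocampus, with a log2 fold change of 0.40 (SE 0.07, adjusted p 0.000784). Snrnp25, of the same particle, had 0.30 (SE 0.06, adjusted p 0.0025) and Snrnp48 had 0.36 (SE 0.13, adjusted p 0.0397). Of the 17 genes of snRNA transcription and processing, 4 rose and 2 fell, and Ints7, an Integrator subunit, had 0.42 (SE 0.05, adjusted p 5.35e-05).

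Among the 6 genes of Sm protein methylation and chaperones, 3 fell and 1 rose in hippocampus over both genotypes, again against 25% and 29% of all genes. The arginine methyltransferases Prmt5 and Prmt7 had log2 fold changes of -0.20 (SE 0.06, adjusted p 0.0152) and -0.21 (SE 0.04, adjusted p 0.00164), and Clns1a (pICln), which hands Sm proteins to the SMN complex, had -0.19 (SE 0.04, adjusted p 0.00554). For snRNA cap, export and import, 2 of 8 fell and 1 rose: Phax, the snRNA export adaptor (-0.19, SE 0.05, adjusted p 0.0073), Tgs1, which hypermethylates the cap (-0.15, SE 0.06, adjusted p 0.0497), and Snupn, the import adaptor (0.21, SE 0.05, adjusted p 0.00891). Of the 8 Cajal body proteins, 3 fell and 2 rose, and coilin (Coil), their scaffold, had -0.29 (SE 0.05, adjusted p 0.000797). Of the 12 U1 and U2 proteins 2 fell and 0 rose, among them Sf3a1 (-0.24, SE 0.06, adjusted p 0.00951), and of the 12 U4, U5 and U6 proteins 1 fell, Prpf8 (-0.28, SE 0.07, adjusted p 0.00979), and 1 rose, Prpf31 (0.18, SE 0.05, adjusted p 0.0138).

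**Figure D5:**
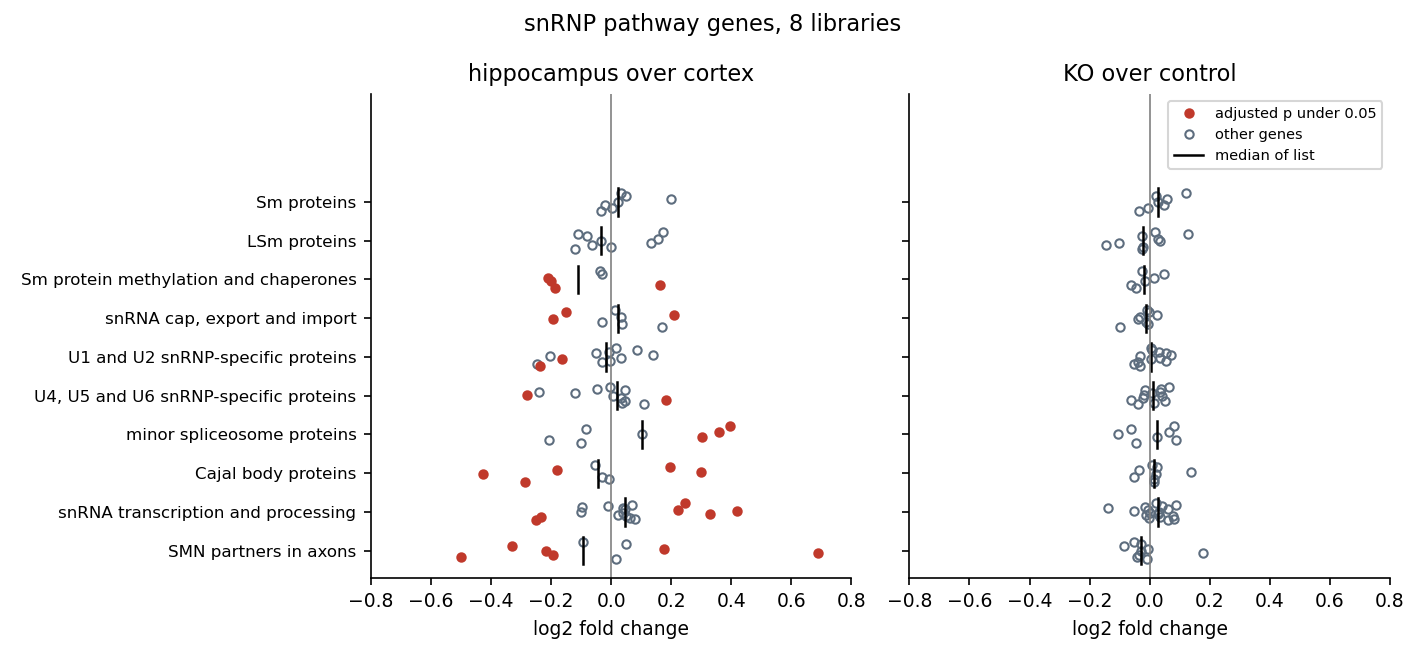
Log2 fold changes of the 95 snRNP pathway genes by list, hippocampus over cortex with both genotypes (left) and KO over control with both tissues (right), with red points for an edgeR adjusted p under 0.05 and black lines for list medians. On the left 31 points are red, 14 to the right of 0 and 17 to the left, and on the right none is. Of all tested genes, 54.1% passed in the comparison on the left and 0.0621% in that on the right.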

How the data were processed

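Libraries were made with Illumina TruSeq kits, per the labels' protocols. Bowtie and the mm9 build appear in the submitters' processing notes. No source used here gives the annotation, the counting rule or the strand setting. The authors deposited 8 tables with a raw count and an RPKM value for each gene. Blank counts were read as 0, and 1114 genes per table have no RPKM. Of 22667 identifiers, 20759 matched a symbol in GENCODE mouse release 21. That annotation's build (GRCm38) differs from mm9, so no coordinates are printed.

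Counts were fitted in edgeR 4.0.16 (R 4.3.3; TMM, filterByExpr, quasi-likelihood test) over all 8 libraries and 16111 genes, with Benjamini-Hochberg adjustment over all of them at 0.05. CPM values were computed from the counts. The depths given above set a floor of 3 counts at 0.0214 to 0.0515 CPM. The fit was tested on simulated data. DESeq2 1.42.0 and limma 3.58.1 (on RPKM) served as alternatives. Replicates differed by more than sampling noise in every group.

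The members and the lists were chosen with earlier results of these data known. The named genes are all 9 members, Srrm4, up to 3 genes per list and comparison that passed, by smallest p, the 5 tested genes on each side of Gemin8, and the 5 most correlated with it. Srrm4 and En2 were left out of that correlation ranking. Snrpn, Lsm3 and Xist were not analysed here.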

Additional observations from a re-analysis of the deposited data

How the results depend on the processing

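The number of members that passed in the hippocampus against cortex comparison was 1 in KO and fell to 0 with no low-count filter, with at least 1 RPKM in 2 libraries, with limma on log2(RPKM + 0.1) and with only the 4 libraries compared, and ranged from 0 to 1 when single libraries were left out. With limma on log2(RPKM + 1) it was also 1, but that member was Gemin8, higher in hippocampus, and Smn1 no longer passed. Over both genotypes it was 2 and became 1 with no low-count filter and with at least 1 RPKM in 2 libraries, and ranged from 1 to 3 without single libraries. There, with limma on log2(RPKM + 1) or log2(RPKM + 0.1), neither Smn1 nor Strap passed, and Gemin8, Gemin7 and Gemin4 passed as higher in place of the 2 lower members. The cause was not tested. In controls it was 0 throughout. None of the members other than Gemin8 passed between KO and control under any alternative run, among them DESeq2, RLE size factors and each library left out.

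The log2 fold change of Gemin8 over both tissues ranged from 1.04, with the counts of Gm5455 added, to 1.60. With limma on log2(RPKM + 1) it was 1.08, on a scale that understates changes of low genes, and without single libraries it ran from 1.48 to 1.60. With limma on log2(RPKM + 0.1) the median of all genes shifted by 0.127 between the tissues in KO and by 0.105 over both genotypes. On log2(RPKM + 1) it shifted by 0.08 and 0.07, and in edgeR by 0.03 and 0.02.

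Counts over all genes moved more in places. KO against control gave 3 genes in cortex and 11 with DESeq2, 4 in hippocampus and 17 with DESeq2 (2 under 10 other alternatives), and 10 over both tissues, 36 with DESeq2 and 22 with the replicate block. The tissue contrast gave 5464 genes in controls and 3231 without replicate 1 of control cortex, and 6442 in KO and 4156 without replicate 1 of KO cortex. The labels do not say that a replicate number marks shared embryos, and same-numbered libraries deviated together with correlations between 0.0961 and 0.380. The replicate block left the number of members that passed at 0 in controls, 1 in KO and 2 over both genotypes. Depth limits Gemin8, with 22 to 184 counts a library, more than the other members, with at least 349.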
